A study of Glycine max with 108 samples.

Results

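The effect of water deficit on the flower transcriptome of soybean was measured across every background of salinity, acidity and low phosphate. Soybean plants (Glycine max, cultivar Magellan), inoculated with Bradyrhizobium, were 31 days old, and flowers of 5 to 7 plants were pooled for each RNA-seq sample. Water deficit meant irrigation at 30% of the water available for transpiration, against 100% in the groups without it. The other stresses were 15 mM salinity, acidity (pH 4 where applied alone) and low phosphate (a reduction of 90% where applied alone). For combinations, the labels state neither the pH nor the phosphate level.

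The 8 groups with water deficit were water deficit alone and its combinations with salinity, acidity, low phosphate, salinity and acidity, salinity and low phosphate, acidity and low phosphate, and all of these stresses. Each was set against the group with the same other stresses and full irrigation, so the 8 groups without water deficit were the control, salinity, acidity, low phosphate, their pairs and the combination of salinity, acidity and low phosphate. None of these 16 groups received cadmium. A combination of other stresses is called a background below. Of the 48 flower samples in these groups, 3 were left out because their values equal the mean of the other samples of their group (acidity replicate 1, water deficit replicate 1 and 4-stress replicate 1). That left 45 libraries, 22 with and 23 without water deficit, of 104 in the series, and 3 libraries per group except 2 in those 3 groups.

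Under water deficit plants close their stomata, abscisic acid accumulates, and genes for protective proteins, compatible solutes and water transport respond to the hormone and to the loss of turgor. In soybean the flowering period is sensitive, and water deficit at that stage is known for the loss of flowers and young pods. The IDs in the files could not be tied to gene names (0 of 57147 matched the RefSeq gene table at hand), so genes are given by ID and no role, pathway or cell type marker is given for any of them.

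Expression is given as FPKM, fragments scaled by transcript length and library size, and differences as log2(FPKM + 1), a scale that understates the change of low genes. The FPKM of a flower library summed to between 613101 and 680482 with water deficit and to between 623168 and 674719 without. Between 38673 and 43702 features were above 0 with water deficit and between 41585 and 43483 without. Absolute depth is unknown; relative depth ran from 0.911 to 1.19 (median 1.03) with and from 0.883 to 1.15 (median 0.995) without water deficit. A feature entered the tests when its mean over the flower libraries was at least 1 FPKM, which 33792 features did.

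Water deficit separated the libraries along the second principal component of flower expression. This component carried 6.93% of the variance, beside 12.1% on the first. On the first, the highest scores were 64.7 in low phosphate replicate 2 and 62.6 in replicate 1 of salinity, water deficit and low phosphate. Replicates 1 and 3 of acidity and water deficit followed, at 56.9 and 45.3. All 22 libraries with water deficit lay below 0 on the second component, between −35.7 and −2.53. Of the 23 libraries without water deficit, 19 lay above 0. The other 4 were the 3 libraries of salinity, acidity and low phosphate, at −5.1, −2.4 and −0.9, and replicate 1 of salinity and low phosphate, at −10.4, whose own group held 15.2 and 12.5. Both of the libraries farthest from their group mean carried water deficit. They were replicate 1 of acidity and water deficit, at a root mean square distance of 0.353, and replicate 1 of salinity, water deficit and low phosphate, at 0.329. The other libraries of acidity and water deficit came next, at 0.316 and 0.308, where the median over libraries was 0.251. Groups of 2 libraries give smaller distances by construction.

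**Figure D1:**
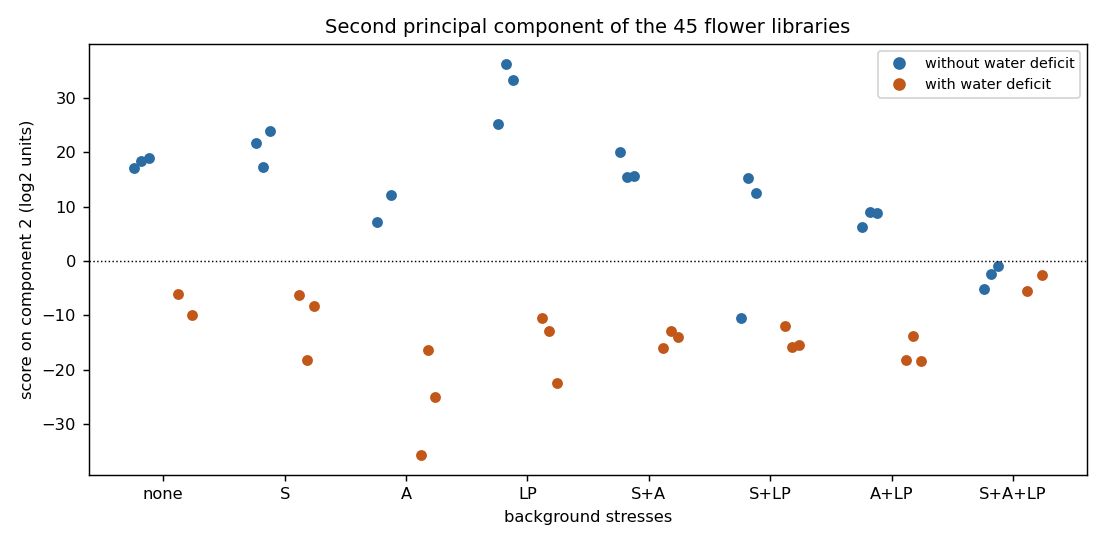
Scores of the 45 flower libraries on principal component 2 of log2(FPKM + 1) (y axis, log2 units) by background (x axis; S, salinity; A, acidity; LP, low phosphate), with and without water deficit; each point is 1 library. All 22 libraries with water deficit lie below 0, as do 4 of the 23 without.

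Averaged over the backgrounds, water deficit changed the expression of 7049 of the 33792 features (20.9%) at an adjusted p under 0.05 (limma, Benjamini-Hochberg). Of these, 3522 were higher (10.4% of those tested) and 3527 lower (10.4%) with water deficit. In such bulk samples, fewer cells of a type and less RNA per cell cannot be told apart. Most of the differences were small. The median size among the called features was 0.20 on the log2 scale, against 0.06 over all features and a median standard error of 0.05. A size of 0.25 or more was reached by 2455 called features, of 0.5 or more by 429 (188 higher, 241 lower), and of 1 or more, a doubling or halving of FPKM + 1, by 33 (11 higher, 22 lower). In the same flower fit, acidity changed 4286 features (12.7%), low phosphate 1431 (4.23%) and salinity 1346 (3.98%).

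Calls rose with expression, from 16.7% of the features in the lowest quartile of mean FPKM to 27.1% in the highest, where the median standard error was 0.04 against 0.06 in the lowest. Features with an ENSRNA ID were called in 1 of 366 cases (0.273%), against 7048 of 33426 with a GLYMA ID (21.1%); the median standard error was 0.38 among the former and 0.05 among the latter. Some features were at 0 in one library and above 5 FPKM in another of the same group. These made up 801 of the features tested and 13 of those called, but 6 of the 33 features with a size of 1 or more.

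Genes were named among called features with the same direction in at least 7 of 8 backgrounds, leaving out those at 0 in one library and above 5 FPKM in another of the same group. The largest rise under this rule was that of GLYMA_13G247500. The lowest, median and highest FPKM were 16.9, 23.9 and 34.6 with water deficit and 4.48, 8.87 and 19.8 without. The ranges overlapped, with 18 of the 22 libraries with water deficit above every library without it. The mean over the 8 groups was 23.8 with and 10.5 without water deficit, a ratio of 2.27, and the log2 difference was 1.18 (SE 0.06, adjusted p = 5.76e-16, limma).

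The control libraries held 7.53, 4.48 and 8.18 FPKM of GLYMA_13G247500, and those of water deficit alone 20.8 and 19.4. In salinity the values were 7.48, 8.91 and 9.76 without and 29.4, 30.8 and 26.5 with water deficit. In acidity they were 8.81 and 8.87 without and 34.6, 24.3 and 28.4 with it. In each of these 3 backgrounds every library with water deficit stood above every library without it. The same held in low phosphate, with 8.11, 5.29 and 6.85 without and 20.2, 16.9 and 24.2 with water deficit. The pair of salinity and acidity was the exception in size. There the libraries without water deficit already held 18.3, 19.6 and 19.8 FPKM, against 23.1, 23.8 and 21.7 with it, and the log2 difference of 0.24 (SE 0.17) did not pass the test (adjusted p = 0.509, limma). The libraries of the groups did not overlap there, but so few libraries can separate without a difference. In the 3 remaining backgrounds the libraries did not overlap either, and all passed the test. The log2 differences were 0.82 in salinity and low phosphate, 0.97 in acidity and low phosphate and 1.24 in all 3 stresses. The gene was chosen for its rise and shared direction, so these separations are not independent support. Acidity itself raised GLYMA_13G247500 by 0.29 on the log2 scale (adjusted p = 0.00147, limma), a call lost without replicate 2 or 3 (0.25 and 0.28, adjusted p = 0.0852 and 0.0842).

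The next largest rise under the same rule was that of GLYMA_05G011200, with a lowest, median and highest FPKM of 5.03, 12.1 and 26.1 with water deficit and 0.994, 5.17 and 12.9 without. The mean over groups was 13.7 with and 5.87 without water deficit, a ratio of 2.34, and the log2 difference was 1.17 (SE 0.14, adjusted p = 6.44e-08, limma). The ranges overlapped between 5.03 and 12.9 FPKM, and 10 of the 22 libraries with water deficit lay above every library without it.

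This rise differed with salinity. The control libraries held 1.27, 4.62 and 0.994 FPKM of GLYMA_05G011200 and those of water deficit alone 19.3 and 21.3, a log2 difference of 2.86 (SE 0.41). The salinity libraries held 12.8, 8.95 and 12.9 without and 13.6, 10.7 and 10.2 with water deficit, which overlapped and gave a log2 difference of 0.00 (SE 0.37). Salinity alone was thus at a level between those of the control and of water deficit. Over the 4 backgrounds without salinity the log2 difference was 1.84, over the 4 with salinity it was 0.50 (adjusted p = 0.0943, limma), and the difference between them was −1.34 (SE 0.27, adjusted p = 0.00358, limma). The rise was also large in acidity and low phosphate, from 3.81, 4.61 and 5.17 FPKM to 20.7, 22.5 and 26.1.

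The largest fall under the rule for naming was that of GLYMA_02G028200, an abundant transcript. The lowest, median and highest FPKM were 115, 154 and 317 with water deficit and 173, 476 and 1049.5 without. Group means were 178 with and 547 without water deficit, a ratio of 0.325, and the log2 difference was −1.43 (SE 0.08, adjusted p = 1.48e-15, limma). The groups overlapped through the control libraries, those of salinity and low phosphate, and replicates 2 and 3 of low phosphate, which were the lowest of those without water deficit.

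In the control the libraries held 194, 203 and 224 FPKM of GLYMA_02G028200, against 156 and 148 under water deficit alone, a log2 difference of −0.44 (SE 0.23) that did not pass the test (adjusted p = 0.271, limma). Salinity alone stood at 725, 678 and 783, acidity at 848 and 1010.0, and both together at 1049.5, 1003 and 979.9. With water deficit added these became 138, 115 and 151 in salinity, 195, 209 and 253 in acidity, and 188, 185 and 204 in both. In each of these 3 backgrounds the libraries without water deficit stood above all of those with it. In acidity and low phosphate the values were 605, 536 and 532 without and 298, 317 and 316 with water deficit, the highest of any group with it. The log2 differences were −2.43 in salinity, −2.08 in acidity and −2.39 in both, and all 3 passed the test. With low phosphate in the background they were smaller, between −1.44 and −0.84, and passed the test in all 4 such backgrounds. Low phosphate replicate 1 held 476 FPKM where the other libraries of its group held 178 and 173. Over all backgrounds the gene was higher by 0.90 with acidity (adjusted p = 2.47e-10, limma) and lower with low phosphate, at −0.43 (adjusted p = 0.000663, limma), and the latter call was lost without replicate 2 or 3 (−0.47 and −0.33, adjusted p = 0.108 and 0.210). The effect of water deficit on it differed with salinity (−0.74, adjusted p = 0.0036), with acidity (−0.52, adjusted p = 0.0283) and with low phosphate (0.82, adjusted p = 0.00411), all by limma. The call by acidity was lost without acidity replicate 3 (−0.49, adjusted p = 0.0623), water deficit replicate 2 (−0.51, adjusted p = 0.0501) or 4-stress replicate 3 (−0.51, adjusted p = 0.0503).

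GLYMA_02G028800 fell by a similar amount, with a lowest, median and highest FPKM of 3.16, 4.84 and 11.8 with water deficit and 4.45, 17.98 and 43.9 without. Group means were 5.62 and 18.4, and the log2 difference was −1.38 (SE 0.11, adjusted p = 8.69e-12, limma). The control libraries held 5.73, 6.45 and 6.16 FPKM and those of water deficit alone 4.19 and 4.01, a difference of −0.48 that did not pass the test (adjusted p = 0.431, limma). Salinity stood at 26.3, 17.98 and 33.8 without and 4.65, 3.16 and 4.23 with water deficit. As for GLYMA_02G028200, the differences were largest in salinity (−2.40) and in salinity and acidity (−2.12).

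These 2 falls, the largest under the rule for naming, have IDs that lie close together in number. From GLYMA_02G028200 to GLYMA_02G028800 the files list 7 IDs, of which 5 were tested and all 5 were lower with water deficit. The 3 in between were chosen after these values were seen. GLYMA_02G028600 fell by 1.21 on the log2 scale and GLYMA_02G028700 by 0.57, both with the same direction in 8 of 8 backgrounds. GLYMA_02G028400 fell by 0.35 (adjusted p = 0.0222, limma), with that direction in 5 of 8. Over all tested features, neighbours in the order of the IDs had the same sign in 51.6% of 33293 pairs. The share was 59.2% of 1624 pairs in which both were called, and 64.1% of the 237 such pairs with a difference of 0.5 or more in at least 1 member.

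**Figure D2:**
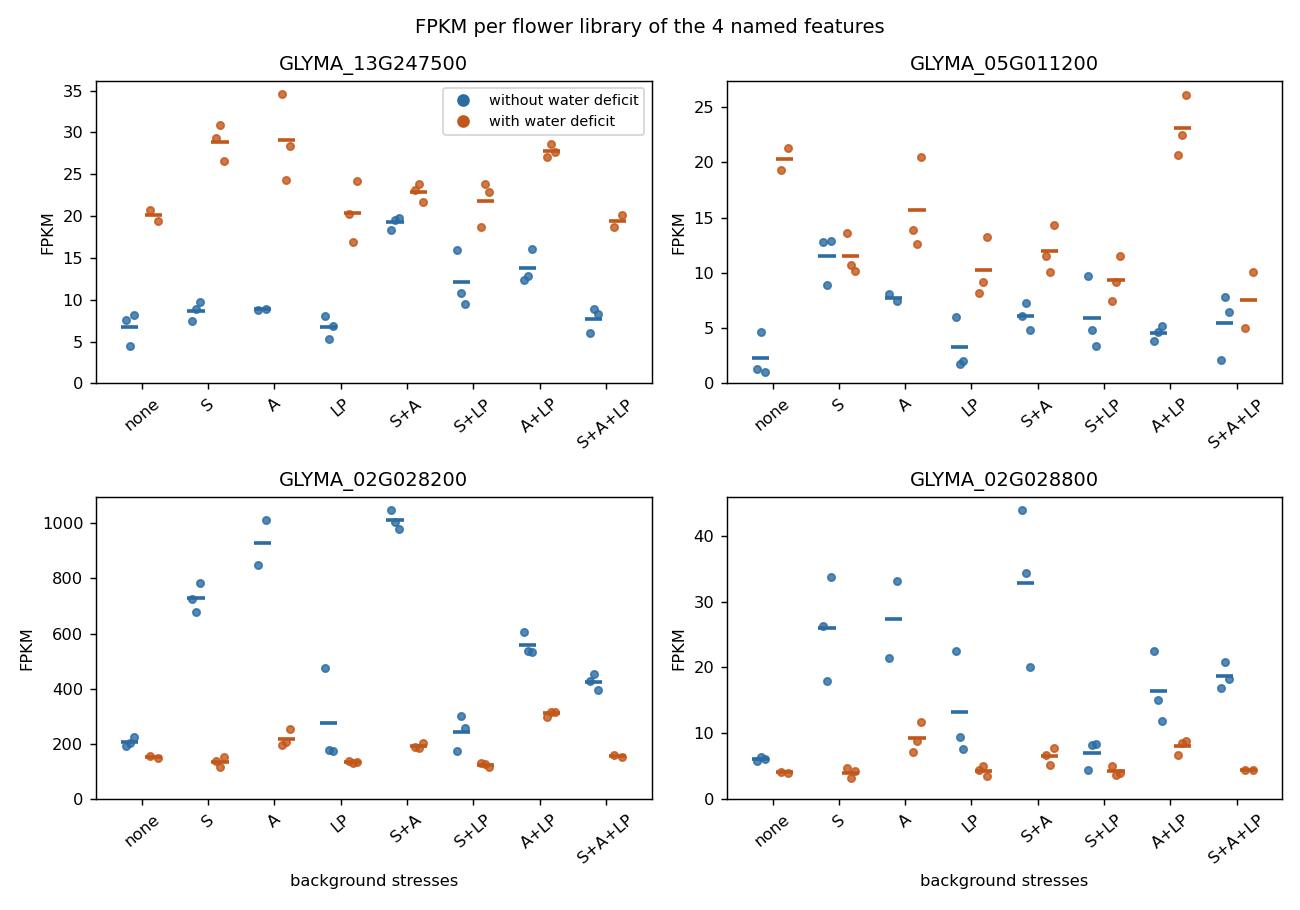
FPKM of the 4 named genes in every flower library of the 16 groups, by background (S, salinity; A, acidity; LP, low phosphate), with and without water deficit; each point is 1 library. GLYMA_13G247500 is higher with water deficit in each background, and GLYMA_02G028200 stays between 115 and 317 FPKM with water deficit while its level without varies from 173 to 1049.5.

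Within single backgrounds, comparing 2 or 3 libraries with 2 or 3, the number of features called varied from 893 to 6904. Each test took the spread of a feature from the libraries of all 16 groups, not from those compared. Low phosphate gave 6904 (20.4%) and acidity 6252 (18.5%), followed by the background with no other stress at 3181 (9.41%), salinity and low phosphate at 3168 (9.38%), salinity and acidity at 2468 (7.3%) and salinity at 1872 (5.54%). Acidity and low phosphate gave 1137 (3.36%) and the combination of all 3 other stresses 893 (2.64%). Of the 4 smallest counts, 3 came from backgrounds with at least 2 stresses, but salinity and low phosphate, at 3168, was close to no other stress, at 3181. The combination of all 3 includes a group of 2 libraries, and its median standard error was 0.146, against 0.130 in acidity and low phosphate. It was also 0.146 in acidity and with no other stress, which include a group of 2 libraries too and gave larger counts. A difference of 1 or more on the log2 scale was reached by 742 called features in acidity and 586 in low phosphate, but by 85 in the combination of all 3. Groups behind the 2 largest counts were uneven on the first principal component. Low phosphate without water deficit scored 31.8, 64.7 and 11.3 on it, and acidity with water deficit 56.9, 18.3 and 45.3. Whether this unevenness adds to the counts was not tested.

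The share of called features that were higher with water deficit was 60.0% with no other stress, 52.5% in salinity and 54.0% in acidity, and 39.0% in acidity and low phosphate and 44.6% in all 3. In low phosphate it was 43.3%, but 54.2% after median ratio scaling of the libraries. In acidity the same scaling gave 47.9%, and it moved the share from 32.5% to 43.6% in salinity and acidity and from 63.2% to 44.3% in salinity and low phosphate. The direction of the majority therefore turned with the scaling in acidity, in low phosphate and in salinity and low phosphate.

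**Figure D3:**
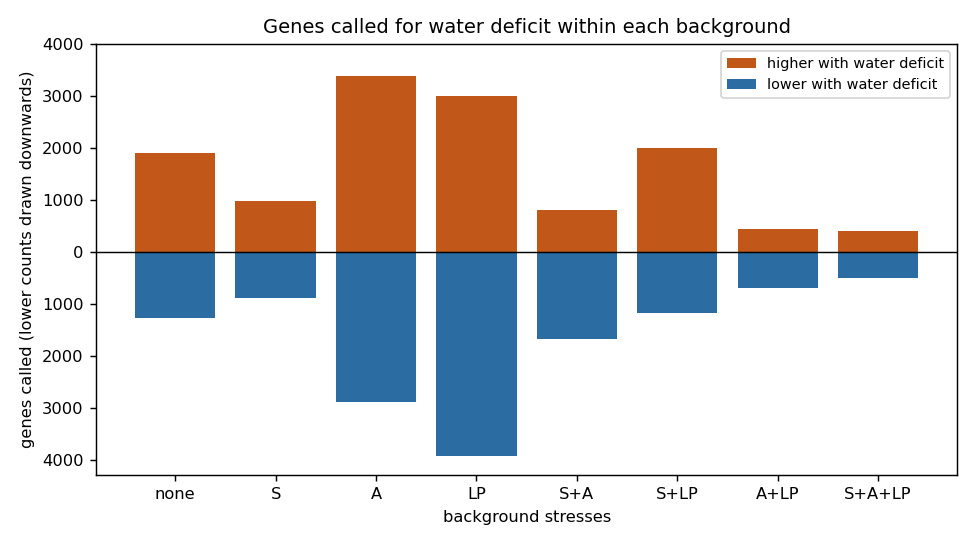
Number of flower features called for water deficit (adjusted p under 0.05, limma) within each background of salinity (S), acidity (A) and low phosphate (LP); bars above 0 count features higher with water deficit and bars below 0 features lower. Acidity and low phosphate alone hold the largest counts, 6252 and 6904, and the combination of all 3 the smallest, 893.

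These counts depended on single libraries. Without replicate 1 of salinity, water deficit and low phosphate, one of those far from its group, the count in salinity and low phosphate was 943 in place of 3168, and without replicate 2 or 3 of salinity and low phosphate it was 1506 or 1108. With no other stress it was 1387 or 1550 without replicate 2 or 3 of water deficit, and in acidity 2839 or 3297 without replicate 2 or 3 of acidity. Leaving out replicate 1 of acidity and water deficit, the library farthest from its group, gave 4855 in acidity. In low phosphate the count was 3459 without replicate 2 of low phosphate and 4547 without replicate 3 of water deficit and low phosphate. In salinity and acidity it was 1633 without replicate 3 of the group with water deficit. The 2 smallest counts moved too. In acidity and low phosphate the count was 697 or 729 without replicate 2 or 3 of the group with water deficit. In the combination of all 3 it was 523 or 372 without replicate 1 or 2 of the group without water deficit and 189 or 201 without replicate 2 or 3 of the 4-stress group. Leaving out any 1 of the 45 libraries kept the count for the average over backgrounds between 6461 and 7322. Without replicate 1 of salinity and low phosphate, which lay among the water deficit libraries on the second component, it was 7239. The differences of the 4 named genes were then 1.21 for GLYMA_13G247500, 1.22 for GLYMA_05G011200, −1.45 for GLYMA_02G028200 and −1.42 for GLYMA_02G028800.

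Few of the features called on average were called everywhere. Of the 7049, 5943 (84.3%) were also called in the same direction in at least 1 background, 835 (11.8%) in at least 4 and 5 in all 8, and 1106 in none. Conversely, of the 33792 features tested, 14935 were called in at least 1 background, and 8985 of those were not called on average. A feature higher in one background and lower in another, with both differences called, was found 2511 times among the 33792. P-values were adjusted within each background, so false calls can add up over the 8 in these counts. Among the 7049, 687 were called in the opposite direction in at least 1 background.

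The direction of the 7049 was nevertheless shared by most backgrounds. It was the same in all 8 for 1015 of them (14.4%; 574 higher, 441 lower), where 3.33% of all features have 1 direction in 8 of 8, and in 7 for 2491 (35.3%, against 11.4% of all features). Each background contributes to the average, so that these shares are not independent of the call. A count less tied to the call takes the features called in 7 backgrounds and reads their direction in the background left out. The 2 differences share no library, but the spread used for the call and the filter came from all libraries. The direction was the same for 82.9% of such features in acidity and low phosphate, where 63.0% of all features had the sign of their average, for 77.0% in salinity and acidity (59.3%), 72.2% in salinity (58.4%) and 72.0% in salinity and low phosphate (54.0%). It was the same for 68.9% in low phosphate (51.7%), 63.8% with no other stress (55.7%), 60.5% in acidity (49.6%) and 53.7% in the combination of all 3 (49.3%). The median difference along the direction of the other 7 was 0.17 in acidity and low phosphate and 0.02 in the combination of all 3.

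**Figure D4:**
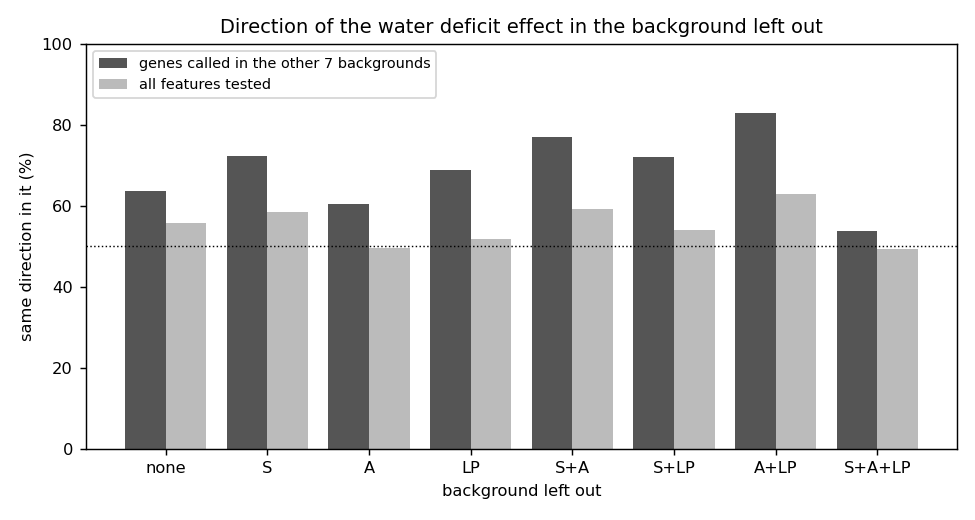
Percent of features whose water deficit difference in 1 background (S, salinity; A, acidity; LP, low phosphate) has the sign of their average over the other 7, for features called in those 7 (dark) and all features tested (pale); the dotted line marks 50%. The dark bars run from 53.7% in the combination of all 3 stresses to 82.9% in acidity and low phosphate.

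Whether the effect of water deficit differed among the 8 backgrounds was tested for each feature with a moderated F test, which called 10641 features (31.5%). They included 3957 of the 7049 features called on average (56.1%). Correlations of the log2 differences over all features, given as a description across genes, ran from −0.18 to 0.34 over the 28 pairs of backgrounds, with a median of 0.11 and 7 pairs below 0. The highest was between acidity and salinity and low phosphate, and the lowest between acidity and the combination of all 3. Between the background with no other stress and low phosphate, 1429 features were called in both and 83.0% of them in the same direction, against 54.4% of all features. Between no other stress and acidity, 933 were called in both (29.3% of the former and 14.9% of the latter), and 30.5% of them in the same direction, against 45.6% of all features. Each of these 2 backgrounds has a group of 2 libraries, and their counts of calls depended on single libraries as given above. Salinity and acidity, and acidity and low phosphate, shared 583, with 98.6% in the same direction, against 59.5% of all features.

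Of the 3 other stresses, acidity was the one with which the water deficit effect most often differed. The difference between the 4 backgrounds with and the 4 without it was called for 2568 features with acidity (7.6%), 1078 with salinity (3.19%) and 539 with low phosphate (1.6%). Over the backgrounds with and without acidity, water deficit changed 4193 (12.4%) and 5525 (16.4%) features. With and without salinity the counts were 3467 (10.3%) and 5556 (16.4%), and with and without low phosphate 4184 (12.4%) and 4964 (14.7%). In each case more features were called without the other stress; these counts were not compared by a test. With acidity, 826 of the interaction differences were positive and 1742 negative. Among the negative ones the median water deficit difference was 0.21 without acidity and −0.19 with it, and among the positive ones −0.17 without and 0.12 with it. The sign with and without acidity was opposite in 66.5% of the 2568, against 41.7% of all features. A call needs a gap between the differences with and without acidity, so these medians and this share are not independent of it. Only 138 of the 2568 were called both with and without acidity in opposite directions. For low phosphate the count was 322 without acidity replicate 3, 298 without water deficit replicate 3 and 350 without 4-stress replicate 2. It was 954 without replicate 1 of salinity, water deficit and low phosphate, 977 without replicate 2 of acidity and water deficit and 850 without low phosphate replicate 3.

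The features with the largest differences by acidity were chosen after their values were seen. GLYMA_02G120600 held 163, 171 and 180 FPKM in the control and 70.5 and 75.8 under water deficit. In acidity it held 40.4 and 45.7 without and 53.2, 67.1 and 66.0 with water deficit, and in salinity and acidity 35.5, 31.0 and 26.6 without and 70.0, 61.7 and 70.2 with it. The gene was thus lower with water deficit in the first of these backgrounds and higher in the others, with no overlap of libraries in any of the 3. The log2 difference was −0.93 over the backgrounds without acidity and 0.38 over those with it, and these differed by 1.31 (SE 0.08, adjusted p = 4.38e-14, limma). In the 3 backgrounds of low phosphate with another stress it was between −0.17 and 0.11, and none passed the test.

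In GLYMA_14G085600 the difference by acidity was 1.33 (SE 0.21, adjusted p = 2.75e-05, limma), from −0.48 without acidity to 0.86 with it. The largest difference within a background, 2.86, was in salinity, acidity and low phosphate. There the 4-stress group held 16.7 and 16.6 FPKM, against 1.64, 0.892 and 1.86 without water deficit. No other flower library of the 45 held more than 6.18. The other differences with acidity were 0.94 in acidity, 0.23 in salinity and acidity and −0.60 in acidity and low phosphate. Without acidity they were −1.21 with no other stress, −0.97 in low phosphate, −0.59 in salinity and low phosphate and 0.85 in salinity. In leaf the gene was far higher, from 70.1 to 374 FPKM with and from 71.4 to 285 without water deficit. The source of the high values in the 4-stress flowers was not tested. In GLYMA_16G067100 the difference by acidity was −1.90 (SE 0.44, adjusted p = 0.0042, limma) and in GLYMA_09G204400 −1.74 (SE 0.33, adjusted p = 0.000464, limma), and libraries of the same group varied widely in both. GLYMA_16G067100 held 16.5, 12.9 and 1.47 FPKM in acidity and low phosphate, and GLYMA_09G204400 held 1.92 and 9.23 in the 4-stress group.

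A complete separation of the 22 libraries with water deficit from the 23 without was found in 2 of the 33792 features (0.00592%), both named because of it. GLYMA_07G052100 ran from 2.98 to 7.94 FPKM with and from 0.780 to 2.87 without water deficit, a log2 difference of 0.89 (SE 0.07, adjusted p = 1.61e-11, limma). GLYMA_08G070000 ran from 7.43 to 12.7 with and from 3.07 to 6.90 without, a log2 difference of 0.74 (SE 0.05, adjusted p = 1.38e-13, limma). Both were higher with water deficit, and the difference among backgrounds was called for GLYMA_08G070000 (F test, adjusted p = 0.0176) and not for GLYMA_07G052100 (adjusted p = 0.202).

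The 5 features called in the same direction in each of the 8 backgrounds were likewise named after their values were seen. GLYMA_19G102400 ran from 79.4 to 161 FPKM with and from 49.2 to 117 without water deficit (log2 difference 0.81). GLYMA_06G273600 ran from 3.37 to 8.79 with and from 1.66 to 4.66 without (0.79), and GLYMA_09G202600 from 27.6 to 45.1 with and from 15.8 to 32.9 without (0.69). GLYMA_18G061100 ran from 67.6 to 89.6 with and from 42.5 to 73.9 without (0.56). These 4 were higher with water deficit, and GLYMA_15G051500 was lower, from 14.2 to 20.8 with and from 19.99 to 26.1 without (−0.45). In all 5 the ranges of the libraries overlapped between the groups when the backgrounds were pooled.

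The same contrast in leaves of the study's plants, fitted to its own table of 47 libraries, called 14350 of 28678 features (50%). Of the 7049 flower features, 5190 were also tested in leaf and 3187 of those were called there (61.4%, against 47.0% of features not called in flower). These sets were not matched for expression, with which calls rose in flower. Among the 3187 the direction was the same in 2005 (62.9%) and opposite in 1182, where it was the same in 55.6% of all the features called in leaf and tested in flower. The split by direction changed with the scaling of the leaf libraries. Of the flower features that were higher and called in leaf, 46.7% were also higher in leaf as deposited and 69.2% after median ratio scaling, and of those that were lower 73.6% and 58.7% were lower. Of the 429 called features with a flower difference of 0.5 or more, 232 were tested in leaf and 157 called there, of which 76 had the same direction in leaf and 81 the opposite. Whether the effect differed between flower and leaf was not tested.

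Of the 4 named genes, 3 had the same direction in leaf with smaller differences. GLYMA_02G028200 had a lowest, median and highest leaf FPKM of 0.294, 38.9 and 155 with and 3.94, 71.9 and 201 without water deficit, a log2 difference of −0.51 (adjusted p = 3.26e-09, limma). GLYMA_02G028800 was at −0.26 (adjusted p = 0.000586, limma), with a leaf median of 1.02 FPKM with and 1.85 without. GLYMA_05G011200 was at 0.32 (adjusted p = 3.73e-09, limma) with nearly equal leaf medians of 54.7 and 54.9. The difference is between means of log2 values over groups, whereas the medians are of FPKM over pooled libraries. GLYMA_13G247500 was low in leaf, with a median of 1.36 FPKM in both sets of libraries, and its difference of −0.21 did not pass the test (adjusted p = 0.0508, limma). It did with the replicate block (−0.21, adjusted p = 0.0394) and with the mean column kept as a library (−0.21, adjusted p = 0.0409).

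**Figure D5:**
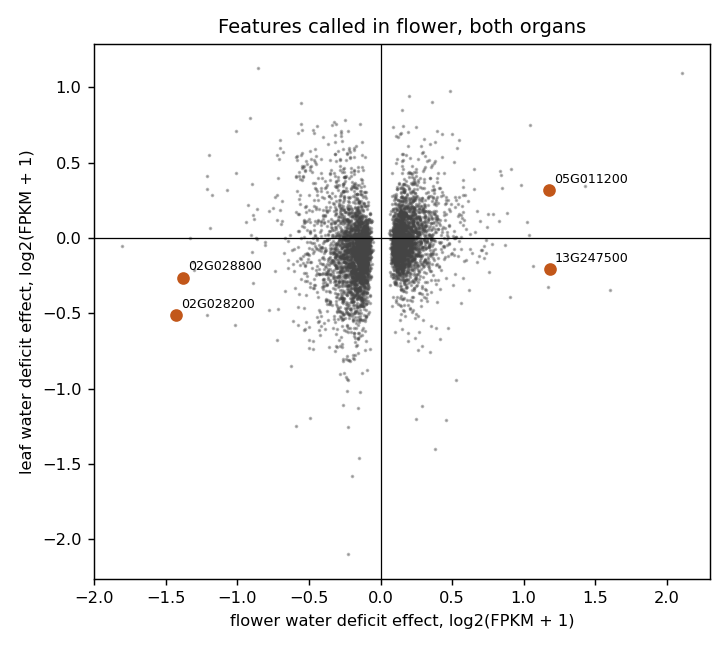
Log2 difference between libraries with and without water deficit in flower (x axis) and leaf (y axis), both in log2(FPKM + 1); each point is 1 feature tested in both organs and called in flower, with the 4 named genes in orange; points farther out did not meet the rule for naming. Of those also called in leaf, 2005 have the same direction and 1182 the opposite.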

How the data were processed

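RNA-seq libraries of soybean flowers and leaves were deposited as 1 table per organ. The deposited values are FPKM, normalised for transcript length and library size by the authors before deposit. Reads were aligned with HISAT2 2.2.1, per the submitters' processing notes; the tool that computed FPKM, the genome build, the annotation, strandedness and the treatment of reads shared by duplicated genes are not given in the sources used here. Soybean holds many near-identical gene copies, so the level of any 1 copy is uncertain.

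Groups and replicates came from the labels, whose protocols call each pool of 5 to 7 plants a biological repeat. In 4 of the 108 columns, at least 99.978% of the features above 0 equalled the mean of the group's other columns (relative tolerance 1e-05; at most 0.146% elsewhere). They were left out, which departs from 3 libraries in every group. Absolute depth is unknown: with a relative depth per library estimated from the smallest values, 67.6% of low flower values lay within 0.1 of whole reads, too few to recover counts. Precision therefore rests on the spread between libraries.

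The 45 flower libraries were fitted with limma 3.58.1 in R 4.3.3 (trend and robust empirical Bayes) on log2(FPKM + 1), pseudocount 1, with 1 mean per group. Water deficit was the mean of 8 groups minus the mean of the other 8, each weighted equally. Within-background differences, interactions and the other stresses were contrasts of the same fit, and p-values were Benjamini-Hochberg adjusted over all 33792 features whose mean FPKM reached 1, at a threshold of 0.05. The F test among backgrounds was added after seeing the data. Leaf was fitted separately. The code was tested on simulated data. Named genes were the 2 largest rises and 2 largest falls among called features with 1 direction in at least 7 of 8 backgrounds, leaving out those at 0 in one library and above 5 FPKM in another of a group. The planned gene lists and markers were not used, since 0 of 57147 IDs matched the RefSeq table (Glycine_max_v4.0). Members, rules and lists were chosen with earlier results of these data known. Alternatives were pseudocount 0.1, no filter or a filter at 5 FPKM, median ratio scaling, mean columns kept as libraries, a replicate block, all flower groups in the fit, plain limma, and leaving out replicates, libraries or backgrounds.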

Additional observations from a re-analysis of the deposited data

Results flagged for a closer look

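The effect of water deficit in flower differed between backgrounds in a test of the difference itself. It was called for 2568 features between backgrounds with and without acidity, for 1078 with salinity and for 539 with low phosphate (adjusted p under 0.05, limma). The F test over the 8 backgrounds called 10641.

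Single genes reached this list in the same way. By acidity, the water deficit difference moved by 1.33 in GLYMA_14G085600, by 1.31 in GLYMA_02G120600, by −1.90 in GLYMA_16G067100 and by −1.74 in GLYMA_09G204400, all on the log2(FPKM + 1) scale. By salinity it moved by −1.34 in GLYMA_05G011200. In GLYMA_02G028200 it moved by −0.74 with salinity, by −0.52 with acidity and by 0.82 with low phosphate. No group had 4 libraries, so single libraries were not tested as outliers within groups.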

How the results depend on the processing

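The count for the average over backgrounds, 7049, was between 5071 (filter at 5 FPKM, 21266 features tested) and 8450 (mean columns kept as libraries) under the alternatives that keep every background and replicate, with 6971 at a pseudocount of 0.1, 7173 after median ratio scaling and 7431 without a filter. Leaving out 1 background at a time from the average, with its libraries still in the fit, gave between 6156 and 7623. Libraries of the same replicate number in a background showed little correlation: over 21 pairs the correlation of deviations ran from −0.135 to 0.120 (median 0.0108). Of the 45 libraries, 19 correlated best with one of their own number in another group. The number to expect without pairing was not worked out. With the replicate block the count was 7189, sharing 6940 features.

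Leaving out all libraries of 1 replicate number left 1 library in the groups without their mean column when it was replicate 2 or 3, and a lone library is then assumed to vary like the others. The count was between 3479 and 6387. It was between 705 and 2504 for the difference by acidity, 40 and 747 by salinity, 19 and 276 by low phosphate, and 1500 and 6903 for the F test. Within backgrounds it was between 514 and 2963 with no other stress, 558 and 1269 in salinity, 1956 and 4681 in acidity, 1304 and 5275 in low phosphate, 588 and 1511 in salinity and acidity, 246 and 1531 in salinity and low phosphate, 253 and 793 in acidity and low phosphate, and 11 and 873 in all 3. Fewer libraries enter these fits. Leaving out single libraries, added after seeing the data, gave between 298 and 977 by low phosphate, 761 and 1329 by salinity, and 2238 and 2944 by acidity. For the average over backgrounds it gave between 6461 and 7322. The F test was rerun only without each library far from its group, which gave 10017 and 11037. Within backgrounds it gave up to 3582 with no other stress, 2060 in salinity, 8177 in acidity, 7801 in low phosphate, 2751 in salinity and acidity, 4118 in salinity and low phosphate, 1278 in acidity and low phosphate, and 1137 in all 3. In salinity the lowest was 1266. For each background only 6 to 8 of these omissions were tried, so others could go beyond these counts.

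With mean columns kept as libraries, the counts were 1830 by salinity, 1330 by low phosphate, 5461 with no other stress, 9629 in acidity and 2761 in all 3; such a column adds no spread of its own. With all flower groups in the fit they were 312 by low phosphate and 592 in all 3. Without both libraries far from their group, an alternative added after seeing the data, they were 886 by low phosphate, 1144 in salinity and low phosphate and 1461 in all 3. The cause of these changes was not tested.

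The main differences of the 4 named genes kept their direction and call in all 65 alternatives, between 1.12 and 1.32 for GLYMA_13G247500, 0.93 and 1.35 for GLYMA_05G011200, −1.57 and −1.28 for GLYMA_02G028200, and −1.52 and −1.24 for GLYMA_02G028800. Without replicate 2 or 3, some differences no longer passed the test: GLYMA_05G011200 by salinity (−1.29 and −1.30), and GLYMA_02G028200 by salinity (−0.59 and −0.69), acidity (−0.54 and −0.52) and low phosphate (0.81 and 0.76). The difference of GLYMA_02G028200 by acidity was also not called without both libraries far from their group (−0.49, adjusted p = 0.0535, limma). Without replicate 2, those of GLYMA_16G067100 (−1.76) and GLYMA_09G204400 (−1.03) by acidity no longer passed.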

Other observations

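Cadmium was outside the comparisons. In flowers with 300 µM cadmium alone GLYMA_02G028200 held 753, 779 and 783 FPKM, against 194, 203 and 224 in the control, and in the combination of all 5 stresses, which includes water deficit, 202, 301 and 263. GLYMA_02G028800 held 35.8, 40.1 and 30.7 with cadmium alone and 6.93, 11.8 and 14.4 in the 5-stress combination. GLYMA_13G247500 held 8.56, 7.37 and 7.10 with cadmium alone, and 15.7, 14.3 and 15.9 in the 5-stress combination. The flowers of the 5-stress combination have no counterpart with the same other stresses and full irrigation here, so no difference was tested.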
